A study of Mus musculus with 12 samples.

Results

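Interferon-stimulated genes (ISGs) are the transcripts that cells raise in response to interferons, the cytokines of antiviral defence. The 44 ISGs described here are listed genes of 5 roles, and all 44 were among the 25117 gene symbols of the expression table. They were 20 antiviral effectors, 7 genes of the ISG15 system and of ubiquitin or ADP-ribose modification, 8 interferon-inducible GTPases, 5 sensors of nucleic acid, and 4 STAT and IRF factors. Polyadenylated RNA had been sequenced from mouse embryonic fibroblasts (MEFs), all of them carrying a homozygous floxed Rbbp5 allele and Cre recombinase driven from Rosa26. The protein RBBP5 is a core subunit of the COMPASS family of histone H3 lysine 4 methyltransferases. The 12 libraries formed 4 groups of 3. RBBP5 KO cells in full medium had 7 days of tamoxifen and then 16 hours in DMEM with 10% serum, and wildtype cells in full medium had the same without tamoxifen. By their labels, RBBP5 KO cells in EBSS and wildtype cells in EBSS had 16 hours in Earle's balanced salt solution in place of full medium. That solution leaves out amino acids and serum. Tamoxifen and Cre activity were given with the KO label alone, so effects of tamoxifen, Cre or RBBP5 loss cannot be told apart. The labels do not say whether replicates came from separate embryos or cultures, and p-values therefore measure only the spread between these libraries.

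Type I interferon binds the IFNAR receptor, whose kinases JAK1 and TYK2 phosphorylate STAT factors, STAT2 among them. STAT2 and IRF9 belong to the complex that binds the interferon-stimulated response element (ISRE) in promoters. Interferon gamma acts through the GAS element instead, and fibroblasts respond to both kinds. Several sensors and factors of the response are themselves ISGs, so the pathway raises its own components.

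The promoters of 34 of the 44 genes were found in the RefSeq table of mouse assembly GRCm38.p6, as the stretch from 250 bases before to 50 after the annotated start. The ISRE core, written here as TTTC, any 2 bases and TTTC again, was searched on both strands and occurred in 18 of these 34 (52.9%) and in 3.99% of the promoters of all 27025 genes in that table. The GAS core TTCNNNGAA, which reads the same on both strands, occurred in 10 of 34 (29.4%), against 9.55% of all. The ISRE core was in 6 of 7 GTPase promoters, 3 of 3 sensor promoters, 7 of 16 effector promoters, 1 of 4 in the ISG15 and modifier class and 1 of 4 among the factors. Matches are descriptions of the letters in these windows, not of binding. The stretches below show, for each role, the member with the highest mean level among those with an ISRE core, and the capitals mark that core. It reads GAAA, 2 bases, GAAA where it lies on the opposite strand. Bst2 is at chr8:71537527-71537676, Isg15 at chr4:156200819-156200968, Irgm1 at chr11:48871428-48871457 and Eif2ak2 at chr17:78882535-78882564, all on the minus strand, and Stat2 is at chr10:128270248-128270345 on the plus strand.
Bst2: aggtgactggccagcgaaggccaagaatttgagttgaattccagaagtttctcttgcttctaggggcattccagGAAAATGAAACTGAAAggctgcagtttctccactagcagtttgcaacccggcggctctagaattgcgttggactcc
Isg15: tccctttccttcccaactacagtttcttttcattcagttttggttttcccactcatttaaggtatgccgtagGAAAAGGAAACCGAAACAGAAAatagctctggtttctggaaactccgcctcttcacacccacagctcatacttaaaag
Irgm1: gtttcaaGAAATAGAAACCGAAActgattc
Eif2ak2: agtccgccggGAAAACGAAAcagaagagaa
Stat2: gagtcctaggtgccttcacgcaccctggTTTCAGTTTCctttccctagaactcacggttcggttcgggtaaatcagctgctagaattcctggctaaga

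In Isg15 the core occurs 3 times in overlapping register, in Bst2 and Irgm1 2 times each, and in Eif2ak2 and Stat2 once. In Eif2ak2 it begins 19 bases after the annotated start, and in the other 4 it lies before it. The GAS core of Bst2 overlaps its ISRE core, and no other member had such an overlap.

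**Figure D1:**
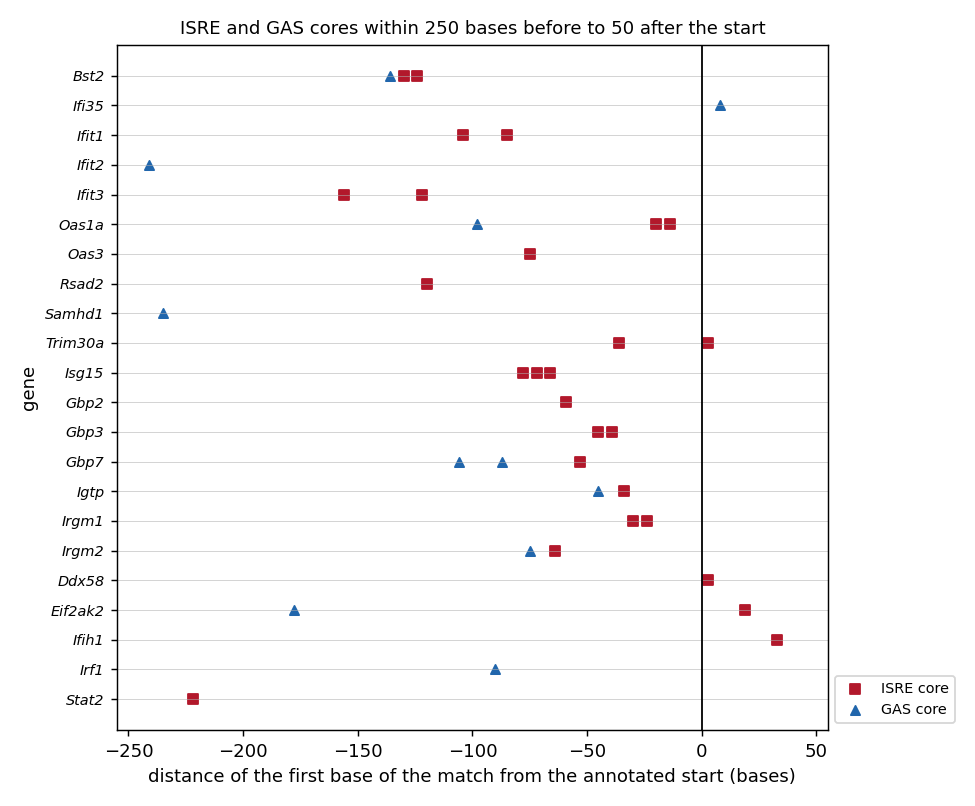
Positions of the ISRE core (squares) and the GAS core (triangles) in the promoters of members that hold either, with the distance from the annotated start in bases on the horizontal axis and genes in role order down the page. The 18 members with an ISRE core include 6 GTPases and 3 sensors.

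Values were deposited as TPM, a share of the library's transcripts that accounts for their length. TPM keeps no read depth, so the depth behind each value is unknown. Changes are differences in log2(TPM + 1), a scale that understates the change of low genes, and p-values come from limma with Benjamini-Hochberg adjustment over the 12653 genes tested (threshold 0.05). Rbbp5 was at 7.47, 9.34 and 8.31 TPM in KO cells in full medium, against 26.2, 25.7 and 26.2 TPM in wildtype cells in full medium. EBSS libraries labelled KO had 31.9, 24.6 and 23.0 TPM, against 12.4, 13.97 and 11.8 TPM in EBSS libraries labelled wildtype. The targeted gene thus followed the genotype labels in full medium (log2 change −1.53, adjusted p = 3.4e-06), and its TPM went against them in EBSS (0.99, adjusted p = 3.2e-05). The median of all tested genes differed by 0.91 between the same EBSS groups, which is near the Rbbp5 difference. In labelled wildtype EBSS, Rbbp5 differed by −0.98 from wildtype full medium, where the median of all tested genes differed by −0.94. The Rbbp5 difference between the EBSS groups thus cannot be told apart from that general shift. In labelled KO EBSS, Rbbp5 differed by 0.01 from wildtype full medium (adjusted p = 0.99), and the median of all tested genes by −0.03. Whether either EBSS group had lost RBBP5 was not tested. The EBSS groups are therefore called labelled KO and labelled wildtype throughout, and no direction of genotype in EBSS can be drawn from the labels alone. The labelled wildtype EBSS libraries also stood apart in composition. Ribosomal protein genes held 31.2% to 33.6% of their summed TPM, against 14.4% to 18.1% in the other 9 libraries, and the median over tested genes was 10.1 to 10.5 TPM, against 17.5 to 23.0 TPM in those 9. The ribosomal RNA precursor Rn45s, which poly(A) selection should leave behind, was at 1454 to 2105 TPM there, against 68.3 to 272 TPM in the other 9. Of 10 fibroblast markers, 7 to 10 were at 1 TPM or more in all 3 libraries of each group.

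The 44 genes together made 604, 580 and 682 TPM in KO cells in full medium, against 1735, 1766 and 1772 TPM in wildtype cells in full medium. In EBSS they made 2325, 1475 and 1449 TPM in labelled KO, against 216, 243 and 248 TPM in labelled wildtype. The sum was thus lower in KO than in wildtype in full medium and higher in labelled KO than in labelled wildtype in EBSS, with no overlap between groups of the same medium. In bulk RNA, fewer cells expressing a gene and less RNA per cell cannot be told apart. In single libraries 8 to 10 members were under 1 TPM in KO full medium, 1 in each wildtype full medium library, 1 in each labelled KO EBSS library, and 17 to 20 in labelled wildtype EBSS. Of the 44, 43 passed the filter of 1 TPM in at least 3 libraries, some of them through the groups where they are high.

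**Figure D2:**
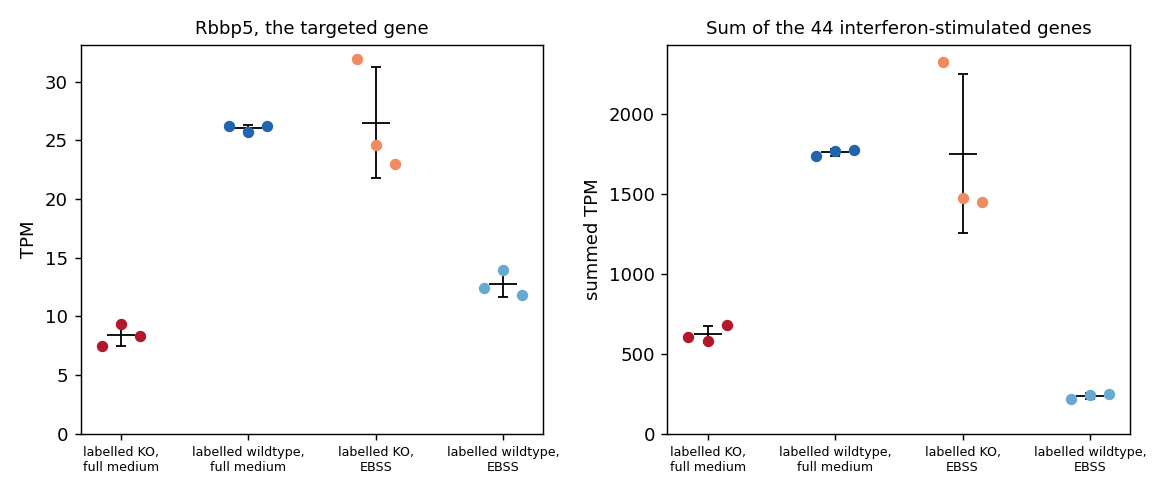
Rbbp5 (left, TPM) and the summed TPM of the 44 genes (right) in each library, as points, with the group mean and SD as bars, for KO and wildtype in full medium and for labelled KO and labelled wildtype in EBSS. Rbbp5 and the sum are both lower in KO than in wildtype in full medium and both higher in labelled KO than in labelled wildtype in EBSS.

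**Figure D3:**
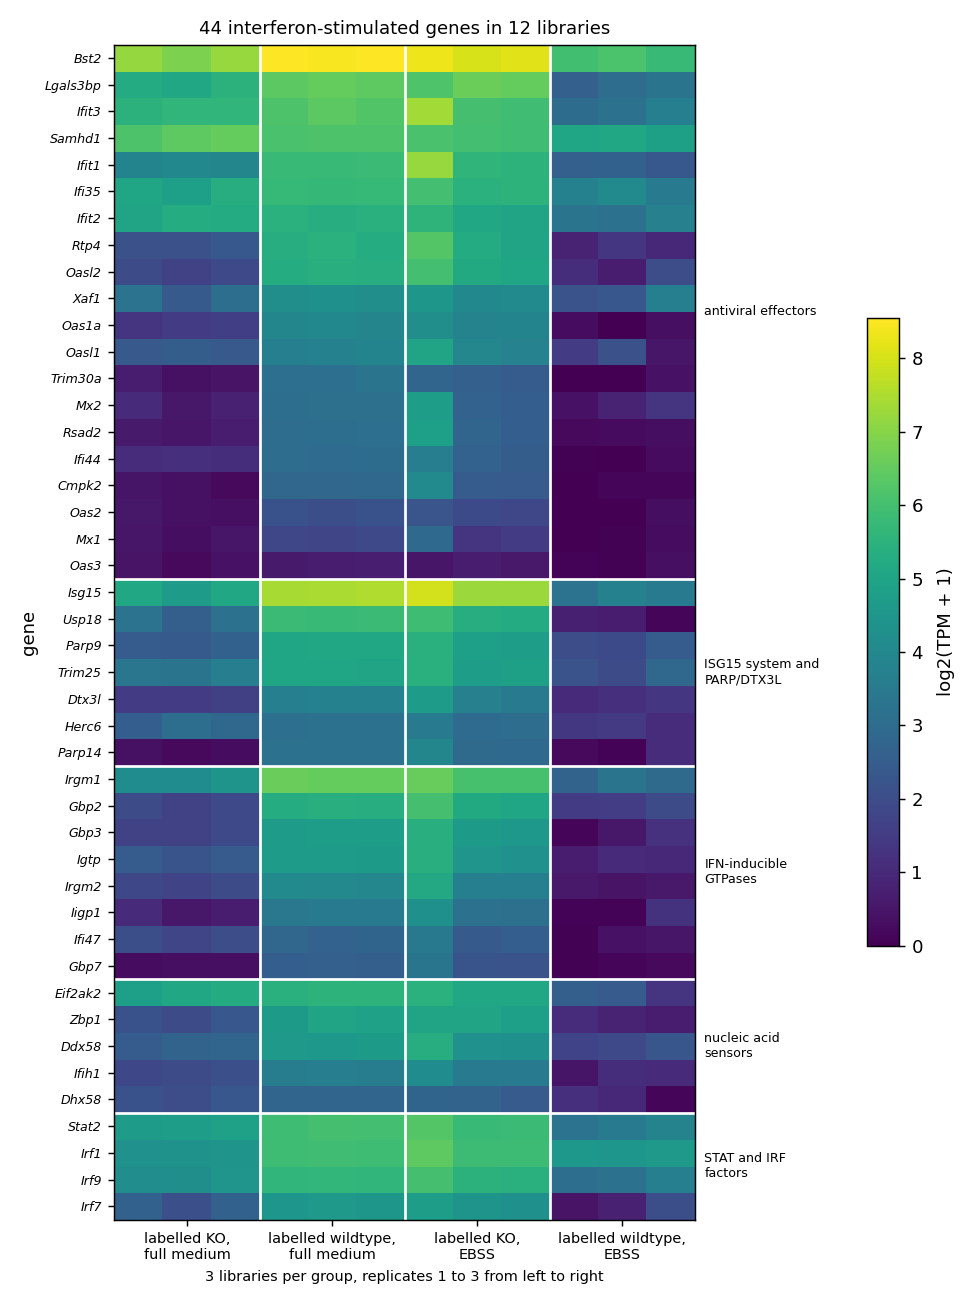
Log2(TPM + 1) of the 44 genes (rows, in role classes) in the 12 libraries (columns), by group as labelled. Wildtype full medium and labelled KO EBSS are the lighter column blocks, and labelled wildtype EBSS is the darkest, with 17 to 20 genes under 1 TPM in each library.

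The first comparison asks how the genes differed between KO and wildtype cells in full medium. Of 43 tested members, 38 were lower in KO, 0 higher and 5 did not pass. Over all tested genes, limma called 35.8% lower and 20.1% higher in KO. At an unadjusted p under 0.05 the members' counts were again 38 lower and 0 higher, against 38.7% and 22.1% of all tested genes. The median member changed by −1.93, and the median of all tested genes by −0.17. The KO libraries lay below all wildtype libraries in 42 of the 43, against 49.7% of all tested genes, and 30.5% of all lay wholly above. In KO cells 11 of the 44 genes kept under 10% of their wildtype TPM, 14 kept 10% to 25%, 12 kept 25% to 50% and 6 kept 50% to 100%, while Samhd1 was at 118%. With median-of-ratios scaling, which brought the median of all genes to 0.01, 37 members were lower and 1, Samhd1, was higher (adjusted p = 0.0027). The calls over all 12653 genes were then 3374 higher and 3417 lower. Markers of other cells moved too. The 12 macrophage and leukocyte markers summed to 65.2 to 70.3 TPM in KO, against 29.4 to 30.6 TPM in wildtype, but of the 3 tested 1 was higher, 1 lower and 1 did not pass. Cd68 had 57.1, 62.0 and 56.4 TPM in KO, against 16.2, 16.4 and 16.2 TPM in wildtype, while Cd14 averaged 3.45 TPM in KO and 11.9 TPM in wildtype (log2 change −1.54, adjusted p = 6.0e-05). Cd3e and Siglech were at 0 in all KO libraries and Adgre1, Tyrobp and Cd3e in all wildtype libraries. The 10 fibroblast markers summed to 6490 to 7130 TPM in KO, against 8451 to 8693 TPM in wildtype, a sum made largely of Vim and S100a4, which did not pass. Of the 10, 7 were lower in KO and 3 did not pass, with log2 changes of −2.70 for Dcn and −3.23 for Pdgfra, against the ISG median of −1.93. Col1a1 averaged 265 TPM in KO and 1051 TPM in wildtype, Dcn 23.3 TPM in KO and 157 TPM in wildtype, Lum 0.312 TPM in KO and 5.29 TPM in wildtype, and Pdgfra 0.238 TPM in KO and 10.6 TPM in wildtype. Endothelial markers (6) summed to 8.22 to 9.03 TPM in KO, against 3.49 to 3.81 TPM in wildtype, mostly Vwf (7.69 TPM in KO and 0.197 TPM in wildtype), while Kdr was lower at 0.450 TPM in KO and 2.96 TPM in wildtype (log2 change −1.45, adjusted p = 7.4e-05). Epithelial markers (6) summed to 4.87 to 6.98 TPM in KO, against 3.15 to 4.21 TPM in wildtype, mostly Krt8 (4.71 TPM in KO and 1.71 TPM in wildtype). Of the 2 tested, Krt8 was higher (log2 change 1.07, adjusted p = 1.3e-04) and Krt18 did not pass (−0.43, adjusted p = 0.19). Among those not tested, Epcam and Cdh1 lay wholly lower in KO and Krt5 wholly higher. Rn45s was at 176 to 272 TPM in KO, against 68.3 to 69.3 TPM in wildtype. The part of these transcripts in the ISG changes was not tested.

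Antiviral effectors act on viral RNA, replication or budding. Of 19 tested, 16 were lower in KO, 0 were higher and 3 did not pass, with a median change of −1.68. Bst2, the tetherin that holds budding virions at the cell surface, was the most abundant member, at 147, 114 and 150 TPM in KO, against 368, 352 and 372 TPM in wildtype. Its groups did not overlap, and it fell by 1.41 on the log2 scale (SE 0.12, adjusted p = 2.8e-06). Oasl2, a 2'-5' oligoadenylate synthetase-like protein, had 2.96, 2.13 and 2.72 TPM in KO, against 38.5, 40.3 and 38.8 TPM in wildtype. On the log2(TPM + 1) scale that was the largest fall of the 43 tested members, −3.49 (SE 0.32, adjusted p = 4.8e-06). Parp14, Cmpk2, Gbp7 and Trim30a kept a smaller share of their wildtype TPM, 2.78% to 5.09%, against 6.64% for Oasl2. Rsad2, the radical SAM enzyme viperin, had 0.545, 0.420 and 0.569 TPM in KO, against 7.27, 7.43 and 7.67 TPM in wildtype. It kept 6.86% of its wildtype level and its neighbour on chromosome 12, Cmpk2, a mitochondrial nucleotide kinase, kept 4.60%. Mx2, a dynamin-like GTPase, had 1.04, 0.459 and 0.741 TPM in KO, against 7.57, 7.84 and 7.85 TPM in wildtype (log2 change −2.34, adjusted p = 0.0016). The reference annotation lists Mx2 as a polymorphic pseudogene, a class for genes that are intact in some strains only.

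The IFIT proteins bind viral RNA ends and hold back its translation, and the 3 members differed in size of change. Ifit1 had 13.3, 14.97 and 14.02 TPM in KO, against 54.5, 54.7 and 56.1 TPM in wildtype, and changed by −1.89 (SE 0.35, adjusted p = 0.0008). Ifit3 had 43.6, 48.1 and 48.2 TPM in KO, against 70.9, 82.8 and 73.4 TPM in wildtype. Its groups did not overlap, but at −0.69 (SE 0.32) it did not pass (adjusted p = 0.085). Ifit2 had 30.4, 38.3 and 37.0 TPM in KO, against 42.4, 39.0 and 41.9 TPM in wildtype. Its groups did not overlap either, but its change of −0.22 (SE 0.17) did not pass (adjusted p = 0.29). It was called lower without labelled KO EBSS replicate 1 and labelled wildtype EBSS replicate 3, which are both outside this comparison. Ifit3 passed where only the 6 full medium libraries were fitted (adjusted p = 5.0e-05) and with labelled KO EBSS replicate 1 left out (adjusted p = 0.0029), a library outside this comparison that enters the shared estimate of spread. The 3 genes lie within 200 kb of each other on chromosome 19, and the wildtype to KO ratios of their mean TPM were 3.91 for Ifit1, 1.62 for Ifit3 and 1.17 for Ifit2.

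A further pair of effectors did not add to the count of lower members, Samhd1 because it did not pass and Oas3 because it was not tested. Samhd1, which hydrolyses the deoxynucleotides that reverse transcription needs, had 70.5, 85.1 and 91.1 TPM in KO, against 67.9, 70.3 and 71.1 TPM in wildtype. It was the one tested member with a positive change, 0.23 (SE 0.10), which did not pass (adjusted p = 0.086) but did so, as higher, in a fit of the 6 full medium libraries (adjusted p = 0.049), without replicate 1 of KO full medium (adjusted p = 0.015) and without replicate 3 of labelled wildtype EBSS (adjusted p = 0.0496). Oas3, an oligoadenylate synthetase, was under 1 TPM in every library and was not tested, with 0.353, 0.158 and 0.344 TPM in KO, against 0.517, 0.582 and 0.645 TPM in wildtype. Its KO libraries all lay below its wildtype libraries.

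ISG15 is a ubiquitin-like protein that is conjugated to other proteins, HERC6 is its ligase in mouse, and USP18 removes it and also dampens IFNAR signalling. Of the 7 genes of this class, 6 were lower in KO, 0 higher and 1 did not pass, with a median of −2.48. Isg15 had 34.0, 25.2 and 34.1 TPM in KO, against 173, 174 and 183 TPM in wildtype (−2.48, SE 0.20, adjusted p = 1.9e-06). Usp18 had 8.48, 4.99 and 8.07 TPM in KO, against 55.7, 53.8 and 56.2 TPM in wildtype (−2.81, adjusted p = 2.1e-06). Both fell several-fold with no overlap between groups. Trim25, a ubiquitin ligase that acts on RIG-I, had 9.11, 8.69 and 11.5 TPM in KO, against 32.5, 31.9 and 31.0 TPM in wildtype (−1.62, adjusted p = 1.4e-04). Herc6 had 4.86, 7.46 and 6.33 TPM in KO, against 7.78, 8.25 and 8.38 TPM in wildtype, groups close together but without overlap, and at −0.36 it did not pass (adjusted p = 0.12; 0.033 in the 6 full medium libraries). Parp14 had 0.310, 0.152 and 0.212 TPM in KO, against 8.18, 8.08 and 8.01 TPM in wildtype (−2.89, adjusted p = 1.1e-05), the lowest share of the wildtype level among the 44 genes. Parp14, Parp9 and Dtx3l, ADP-ribosyltransferases and the ubiquitin ligase partner of PARP9, lie together on chromosome 16 and kept 2.78%, 14.6% and 15.5% of their wildtype TPM. The exons of Parp9 and Dtx3l overlap on opposite strands, and whether reads were counted by strand is not given in the sources used here, so their separate values are uncertain.

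The interferon-inducible GTPases, guanylate-binding proteins (GBPs) and immunity-related GTPases (IRGs), attack vacuoles that hold intracellular pathogens. All 8 were lower in KO and none higher, with a median of −2.31. Gbp2 had 2.96, 2.22 and 2.69 TPM in KO, against 37.9, 40.7 and 38.8 TPM in wildtype, and changed by −3.47 (SE 0.23, adjusted p = 5.5e-07). Gbp3, which lies within 200 kb of Gbp2 and Gbp7 on chromosome 3, had 2.18, 2.20 and 2.73 TPM in KO, against 25.2, 26.9 and 26.9 TPM in wildtype (−3.02, adjusted p = 4.3e-06). Gbp7 kept 5.02% of its wildtype level, so the 3 GBPs all fell to under 10%. Irgm1, a regulator of the other IRGs, had 16.9, 16.9 and 20.2 TPM in KO, against 94.6, 91.8 and 90.8 TPM in wildtype (−2.30, adjusted p = 9.5e-07). Igtp, also called Irgm3, had 4.66, 3.63 and 4.46 TPM in KO, against 25.4, 25.5 and 24.4 TPM in wildtype (−2.32, adjusted p = 1.1e-05). Igtp and Irgm2 share exon sequence on the same strand in the annotation used, so the split of reads between them is uncertain. Iigp1, an effector IRG, had 1.09, 0.466 and 0.563 TPM in KO, against 9.73, 10.6 and 10.2 TPM in wildtype (−2.73, adjusted p = 6.2e-05). Ifi47 changed least, at −0.81 (adjusted p = 0.013), and with a pseudocount of 0.1 in place of 1 it did not pass (adjusted p = 0.094).

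The sensors bind foreign or misplaced nucleic acid. Of 5, 4 were lower in KO, 0 higher and 1 did not pass, with a median of −1.66. Ddx58, which encodes RIG-I, had 4.63, 5.61 and 5.93 TPM in KO, against 23.5, 22.6 and 23.9 TPM in wildtype (−1.93, SE 0.25, adjusted p = 6.6e-05). Ifih1, which encodes MDA5, a sensor of long double-stranded RNA, had 2.64, 2.85 and 3.21 TPM in KO, against 10.98, 11.5 and 11.4 TPM in wildtype (−1.66, adjusted p = 3.7e-05). Zbp1, a sensor of Z-form nucleic acid, had 3.42, 2.90 and 3.93 TPM in KO, against 24.1, 30.7 and 28.4 TPM in wildtype. It changed most of the 5, at −2.70 (SE 0.15, adjusted p = 1.7e-07). Eif2ak2, which encodes PKR, the kinase that halts translation on double-stranded RNA, had 27.2, 33.4 and 37.3 TPM in KO, against 42.2, 44.9 and 44.5 TPM in wildtype. Its groups did not overlap, and it changed by −0.43 (SE 0.28), which did not pass (adjusted p = 0.21). It passed in a fit of the 6 full medium libraries (adjusted p = 0.0061) and without replicate 3 of labelled wildtype EBSS (adjusted p = 0.012). Dhx58, which encodes the RIG-I-like protein LGP2, had 3.46, 3.04 and 4.01 TPM in KO, against 5.92, 5.94 and 5.85 TPM in wildtype, and passed narrowly at −0.62 (adjusted p = 0.042). It was not called without any one of the 6 full medium libraries or labelled KO EBSS replicate 2 or 3 (adjusted p = 0.0502 to 0.12), with median-of-ratios scaling (adjusted p = 0.23), with a pseudocount of 0.1 (adjusted p = 0.32) or with no filter on low values (adjusted p = 0.074).

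The factors carry the signal to the promoters. All 4 were lower in KO and none higher, with a median of −1.44. Stat2 had 24.98, 26.8 and 28.5 TPM in KO, against 58.0, 63.6 and 62.2 TPM in wildtype (−1.17, SE 0.16, adjusted p = 8.0e-05). Irf9, its partner in the ISRE-binding complex, had 17.2, 18.3 and 20.8 TPM in KO, against 48.5, 50.03 and 48.7 TPM in wildtype (−1.35, adjusted p = 8.7e-05). Stat2 kept 43.7% and Irf9 38.2% of the wildtype level. Irf7, the factor that amplifies interferon alpha production, had 5.27, 3.25 and 5.36 TPM in KO, against 21.3, 23.1 and 21.9 TPM in wildtype (−2.06, adjusted p = 3.6e-04). Irf1, a factor induced by interferon gamma through its GAS element, had 18.8, 19.8 and 20.2 TPM in KO, against 58.5, 60.2 and 58.1 TPM in wildtype (−1.54, adjusted p = 3.8e-06). The factors kept a median of 35.8% of their wildtype level, the sensors 25.7%, the effectors 21.2%, the ISG15 and modifier class 15.5% and the GTPases 13.0%, but the ranges of these classes overlapped and their differences were not tested. Among the 17 tested members with an ISRE core in the promoter window the median change was −2.27, and among the 16 without it −1.34, given as a description. Members with no promoter entry are in neither set, and their changes ran from −3.16 for Rtp4 to −0.62 for Dhx58. The 2 medians therefore do not cover all members.

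**Figure D4:**
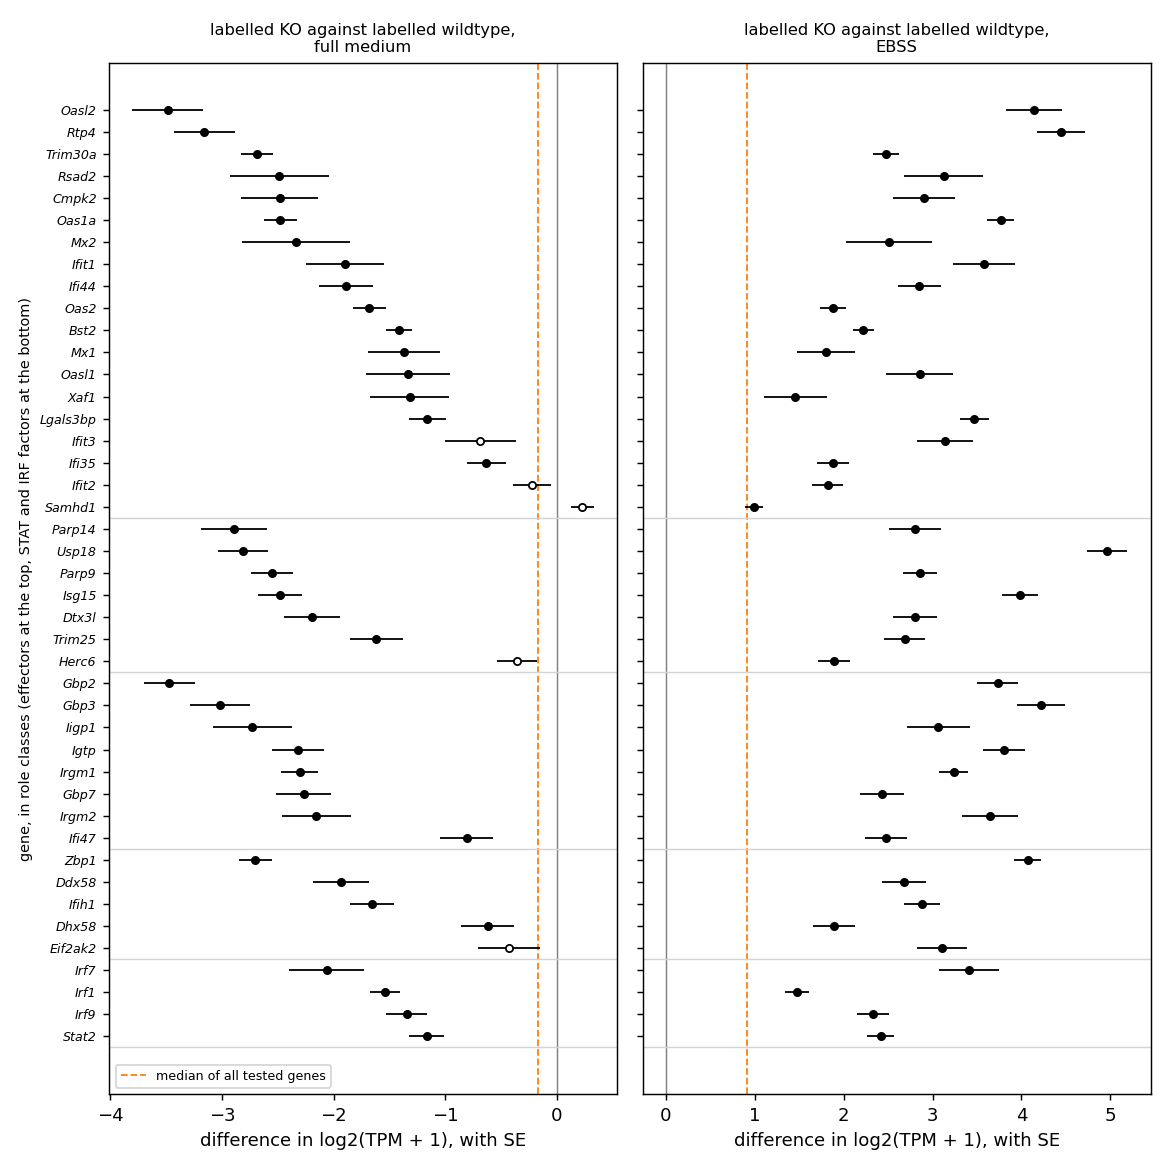
Difference in log2(TPM + 1), with SE, for each of the 43 tested genes between KO and wildtype in full medium (left) and between labelled KO and labelled wildtype in EBSS (right), in role classes. Filled points passed an adjusted p of 0.05, and the dashed line is the median of all tested genes, at −0.17 on the left and 0.91 on the right.

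Other genes of the pathway were counted from the same fit. Of 61 tested, 2 were higher in KO, 44 lower and 15 did not pass, against 20.1% higher and 35.8% lower over all tested genes. None of the 6 listed ligands was tested, and Ifnb1, the interferon beta gene, was listed at 0 in all 3 KO libraries and at 0, 0.0684 and 0.0682 TPM in wildtype. Of 8 receptors and kinases 6 were lower, among them Ifnar2, a chain of the type I receptor, at −0.96 (adjusted p = 4.3e-06), Ifngr2 of the interferon gamma receptor at −0.81, the kinase Jak1 at −0.62 and Ifnar1, the other type I receptor chain, at −0.43. Of the other factors of the pathway, Irf5 was at −1.46 and Irf3 at −0.87. Of 10 genes that act in the induction of interferon 7 were lower, with the DNA sensor Cgas at −2.12, the RNA receptor Tlr3 at −1.68, the adaptor Sting1 at −1.61 and the kinase Ikbke at −1.43. Of 8 negative regulators 6 were lower, led by Socs3, an inhibitor of JAK signalling, at −2.25, the RNA editor Adar at −1.26, the exonuclease Trex1 at −1.25 and Socs1, a relative of Socs3, at −1.06. Of 30 other ISGs 21 were lower, led by Phf11d at −3.23, Ifi203 at −2.98, Rnf213 at −2.82 and Nmi at −2.30. The 2 higher genes were Ifi30, a lysosomal thiol reductase, at 143, 148 and 132 TPM in KO, against 52.7, 54.4 and 49.7 TPM in wildtype (1.41, adjusted p = 2.1e-06), and Slfn5 at 2.45, 1.68 and 2.41 TPM in KO, against 0.308, 0.228 and 0.233 TPM in wildtype (1.33, adjusted p = 7.2e-04).

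The second comparison sets labelled KO against labelled wildtype in EBSS. There the TPM of Rbbp5 goes against the labels, by 0.99 where the median tested gene differs by 0.91. All 43 tested members were higher in labelled KO and 0 lower, by 0.99 for Samhd1 to 4.96 for Usp18, with no overlap between groups. Over all tested genes 71.9% were called higher and 8.58% lower, and the groups lay apart with labelled KO higher in 70% and lower in 8.18%, so the members' count is read against a general shift. The median member differed by 2.85, against 0.91 for all tested genes. With median-of-ratios scaling, which brought the median of all genes to 0.09 and the calls over all genes to 4378 higher and 3694 lower, 41 members were higher and 0 lower. The other 2 were Xaf1 (0.60, adjusted p = 0.17) and Samhd1 (0.04, adjusted p = 0.70). Role class medians were 2.85 for effectors, 2.80 for the ISG15 and modifier class, 3.44 for GTPases, 2.88 for sensors and 2.37 for factors. In labelled wildtype EBSS replicate 3, Lyz2, a macrophage lysozyme, was at 48.4 TPM, against 2.22 and 2.93 TPM in the other 2 libraries of its group. The 12 leukocyte markers summed to 30.6 to 34.7 TPM in labelled KO, against 27.6 to 95.0 TPM in labelled wildtype, and 8 of the 10 fibroblast markers were higher in labelled KO while 2 did not pass. Without labelled wildtype EBSS replicate 3 and labelled KO EBSS replicate 1 all 43 members were still higher. The share of all tested genes called there is not reported here, so this count is not read as a result about the members.

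Isg15 had 248, 151 and 151 TPM in labelled KO, against 8.52, 12.6 and 10.2 TPM in labelled wildtype (3.98, SE 0.20, adjusted p = 2.9e-08). Usp18 had 58.4, 39.2 and 37.3 TPM in labelled KO, against 0.671, 0.625 and 0.106 TPM in labelled wildtype (4.96, adjusted p = 2.0e-08). Usp18 thus had the largest difference of the 43 members on the log2(TPM + 1) scale. By the ratio of mean TPM, Cmpk2 (111-fold) and Ifi44 (98.1-fold) differed more than Usp18 (96.2-fold). Trim25 had 42.3, 26.8 and 28.003 TPM in labelled KO, against 3.58, 2.89 and 6.37 TPM in labelled wildtype. Herc6 had 10.5, 7.00 and 7.34 TPM in labelled KO, against 1.60, 1.71 and 1.13 TPM in labelled wildtype. Parp14 had 14.2, 6.68 and 6.64 TPM in labelled KO, against 0.155, 0.0669 and 1.14 TPM in labelled wildtype. In each of these 5 genes the lowest labelled KO library was more than 4 times the highest labelled wildtype library. Bst2 had 321, 262 and 283 TPM in labelled KO, against 60.7, 68.0 and 54.9 TPM in labelled wildtype. Ifit1 had 148, 47.3 and 44.5 TPM in labelled KO, against 5.08, 5.24 and 4.12 TPM in labelled wildtype (3.57, adjusted p = 2.6e-06). That is a pair of abundant effectors at several times the labelled wildtype level. Ifit3 had 164, 63.9 and 60.2 TPM in labelled KO, against 7.10, 8.07 and 11.9 TPM in labelled wildtype. Ifit2 had 46.0, 33.5 and 30.5 TPM in labelled KO, against 8.87, 8.05 and 12.0 TPM in labelled wildtype. The groups lay apart in each, and in Ifit1 and Ifit3 replicate 1 of labelled KO was over 2 times either of its other replicates. Rsad2 had 27.2, 5.82 and 4.93 TPM in labelled KO, against 0.161, 0.185 and 0.240 TPM in labelled wildtype. Oasl2 had 62.6, 35.1 and 32.4 TPM in labelled KO, against 1.15, 0.591 and 3.06 TPM in labelled wildtype (4.14, adjusted p = 4.1e-07). Mx2 had 26.6, 5.41 and 4.87 TPM in labelled KO, against 0.321, 0.745 and 1.45 TPM in labelled wildtype. In these 3 effectors the labelled wildtype libraries lay between 0.161 and 3.06 TPM, where adding a pseudocount of 1 understates the ratio. Samhd1, at the low end of the changes, had 66.4, 62.8 and 59.5 TPM in labelled KO, against 31.5, 34.1 and 28.1 TPM in labelled wildtype. Oas3 was again under 1 TPM, at 0.442, 0.577 and 0.483 TPM in labelled KO, against 0.0481, 0.0446 and 0.268 TPM in labelled wildtype.

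Among the GTPases, Irgm1 had 94.2, 65.7 and 65.7 TPM in labelled KO, against 5.60, 8.79 and 6.83 TPM in labelled wildtype. Gbp2 had 63.5, 35.1 and 31.4 TPM in labelled KO, against 1.84, 1.94 and 2.85 TPM in labelled wildtype (3.73, adjusted p = 9.5e-08). Gbp3 had 41.1, 24.2 and 22.3 TPM in labelled KO, against 0.117, 0.462 and 1.34 TPM in labelled wildtype. All 8 GTPases were higher in labelled KO, from 2.43 for Gbp7 to 4.22 for Gbp3 on the log2(TPM + 1) scale. By the ratio of mean TPM the order differed, from 10.6-fold for Irgm1 to 53.5-fold for Gbp7. The labelled wildtype mean of Gbp7 was 0.0998 TPM. Igtp had 40.1, 20.9 and 18.8 TPM in labelled KO, against 0.606, 1.02 and 0.990 TPM in labelled wildtype. Iigp1 had 18.4, 8.08 and 7.92 TPM in labelled KO, against 0.0506, 0.0704 and 1.38 TPM in labelled wildtype. Both had labelled wildtype levels near or under 1 TPM, where their ratios are uncertain.

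Among the sensors, Ddx58 had 39.0, 19.0 and 18.5 TPM in labelled KO, against 2.32, 2.68 and 3.87 TPM in labelled wildtype. Ifih1 had 16.7, 10.7 and 10.8 TPM in labelled KO, against 0.393, 1.18 and 1.01 TPM in labelled wildtype. Zbp1 had 31.1, 30.4 and 27.5 TPM in labelled KO, against 1.14, 0.775 and 0.604 TPM in labelled wildtype. Zbp1 differed most of the 5 (4.07, SE 0.15, adjusted p = 6.2e-09), and its labelled KO replicates were close to each other. Dhx58 had 5.74, 5.58 and 4.51 TPM in labelled KO, against 1.29, 0.930 and 0.0768 TPM in labelled wildtype. Eif2ak2 had 43.1, 33.6 and 33.4 TPM in labelled KO, against 5.05, 4.48 and 1.48 TPM in labelled wildtype (3.10, adjusted p = 1.3e-06), although it had not passed in full medium. Stat2 had 75.6, 54.6 and 55.7 TPM in labelled KO, against 8.51, 10.8 and 13.2 TPM in labelled wildtype. Irf9 had 63.6, 44.1 and 41.4 TPM in labelled KO, against 7.44, 8.02 and 11.8 TPM in labelled wildtype. The 2 partners of the ISRE-binding complex thus differed by a like amount, 2.41 for Stat2 and 2.33 for Irf9. Irf7 had 26.1, 20.5 and 18.6 TPM in labelled KO, against 0.362, 0.715 and 3.10 TPM in labelled wildtype. Irf1 had 84.0, 56.6 and 56.3 TPM in labelled KO, against 22.6, 21.3 and 23.7 TPM in labelled wildtype, and after Samhd1 and Xaf1 had the smallest difference of the 43 (1.48, adjusted p = 1.5e-06).

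Of the 61 other pathway genes tested, 56 were higher in labelled KO, 2 were lower and 3 did not pass, against 71.9% higher and 8.58% lower over all tested genes. The 2 lower genes were Ifi30 (−1.22) and Slfn5 (−2.05), those that had been higher in KO in full medium. Ifnb1 was at 0.0805 TPM in replicate 1 of labelled KO and listed at 0 in the other 5 EBSS libraries.

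**Figure D5:**
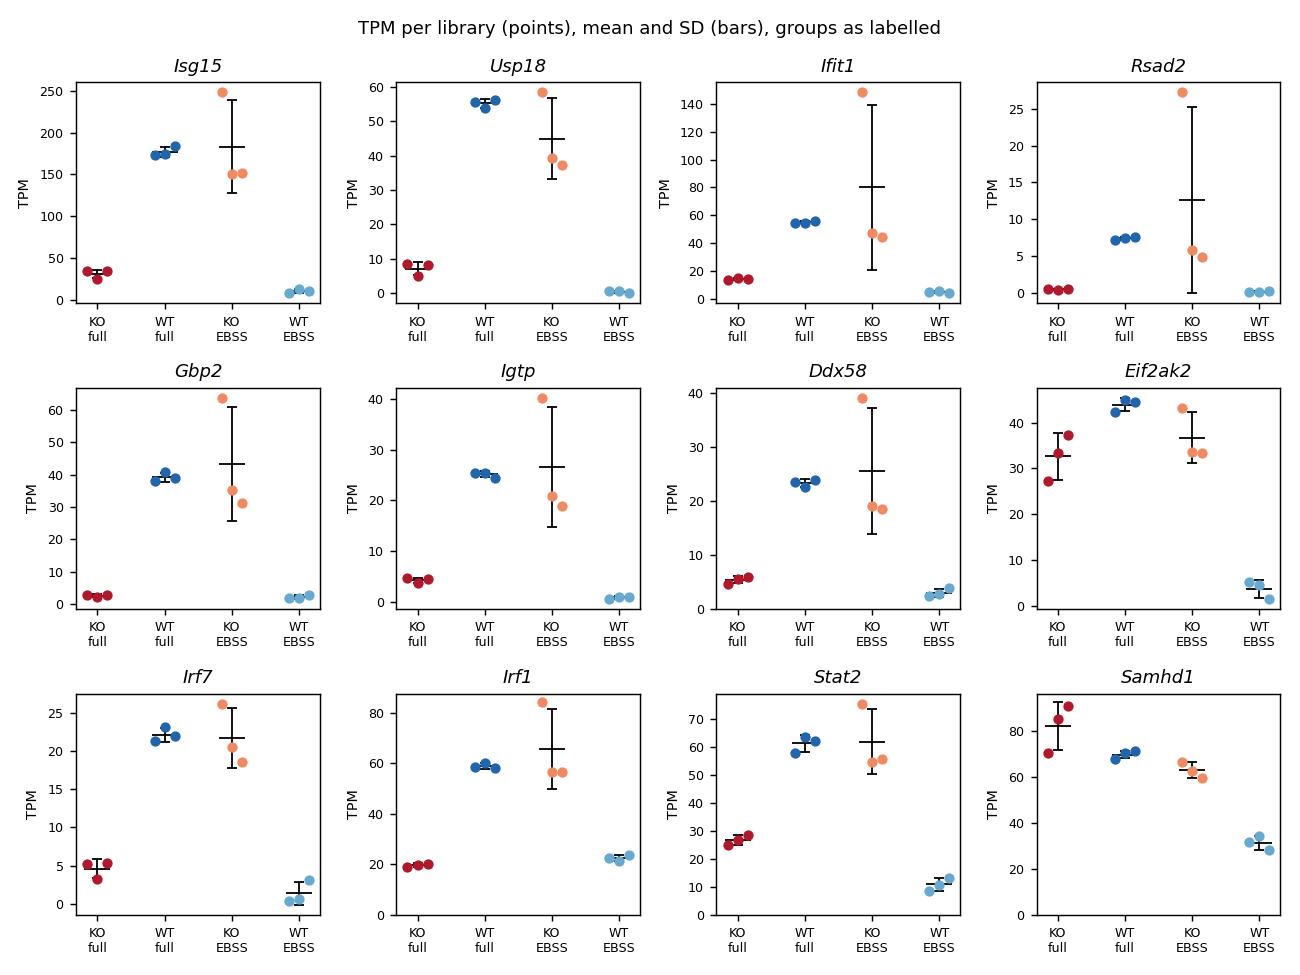
TPM of 12 members in each library (points), with the mean and SD of the 3 libraries of a group (bars), for KO and wildtype in full medium and for labelled KO and labelled wildtype in EBSS. Isg15 is at 25.2 to 34.1 TPM in KO full medium and 8.52 to 12.6 TPM in labelled wildtype EBSS, and at 151 TPM or more in the other 2 groups, while Samhd1 is above 59 TPM in all groups but labelled wildtype EBSS.

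Libraries with the same genotype label were next compared between media. Rbbp5 itself was lower in EBSS in labelled wildtype (−0.98, adjusted p = 3.3e-05), near the median of −0.94 for all tested genes. It was higher in EBSS in labelled KO (1.54, adjusted p = 3.5e-06), where that median was 0.13. These comparisons therefore cannot be read as the effect of EBSS at a fixed genotype. Whether the medium label of labelled KO EBSS names its medium was not tested either. In labelled wildtype, all 43 tested members were lower in EBSS than in full medium and 0 higher, with a median of −2.75, and none overlapped. Over all tested genes 71.8% were lower and 9.25% higher, 73.6% lay wholly lower and 10.5% wholly higher, and the median was −0.94. With median-of-ratios scaling 41 members were lower and 0 higher, while the calls over all genes were 3884 higher and 4480 lower. Usp18 changed most, at −5.29 (SE 0.23, adjusted p = 1.2e-08), and Samhd1 least, at −1.14 (adjusted p = 1.4e-06; −0.15, adjusted p = 0.17, with that scaling). Of the 10 fibroblast markers 7 were lower in EBSS in labelled wildtype and 3 did not pass. In labelled KO, 38 members were higher in EBSS than in full medium, 1 was lower and 4 did not pass, with a median of 1.99. Over all tested genes 33.3% were higher and 20.9% lower, and the median was 0.13. The groups lay apart with EBSS higher in 39 members and lower in 1, against 41.5% and 26.4% of all tested genes. Of the fibroblast markers 8 were higher in EBSS, 1 was lower and 1 did not pass. Col1a1 averaged 1172 TPM in labelled KO EBSS and 265 TPM in KO full medium, Dcn 145 TPM in labelled KO EBSS and 23.3 TPM in KO full medium, and Pdgfra 12.0 TPM in labelled KO EBSS and 0.238 TPM in KO full medium. The 12 leukocyte markers summed to 30.6 to 34.7 TPM in labelled KO EBSS, against 65.2 to 70.3 TPM in KO full medium, with Cd68 at −1.62 and Cd14 at 1.56 on the log2 scale. The part of these markers in the ISG changes was not tested. On the log2(TPM + 1) scale Oasl2 rose most, by 3.57 (SE 0.32, adjusted p = 4.3e-06). Gbp2 followed at 3.55 and Rtp4, a receptor chaperone, at 3.30. The lower gene was Samhd1 at −0.37 (SE 0.10, adjusted p = 0.010). Those that did not pass were Ifit2 (0.04, adjusted p = 0.85), Herc6 (0.36, adjusted p = 0.12), Dhx58 (0.48, adjusted p = 0.11) and Eif2ak2 (0.17, adjusted p = 0.64), and Ifit2 turned negative with median-of-ratios scaling (−0.10), without KO full medium replicate 1 (−0.06) and without labelled KO EBSS replicate 1 (−0.13). Ifit3 was called at 0.87 (adjusted p = 0.036) but not without any one of the 3 KO full medium libraries (adjusted p = 0.072 to 0.099), without labelled KO EBSS replicate 1 (adjusted p = 0.0655) or with median-of-ratios scaling (adjusted p = 0.061). Ifi35, at 0.59 (adjusted p = 0.015), was not called without KO full medium replicate 2 (adjusted p = 0.064) or labelled KO EBSS replicate 1 (adjusted p = 0.053). These comparisons share their libraries with the 2 comparisons between labels.

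The difference between the 2 genotype contrasts, EBSS minus full medium as labelled, was tested as an interaction. It was higher than 0 for all 43 members and lower for 0, with a median of 4.74 on the log2 scale, against 64.2% higher and 12.5% lower and a median of 1.06 for all tested genes. With median-of-ratios scaling 42 were higher and 1, Samhd1, was lower (−0.37, adjusted p = 0.024), and the calls over all genes were 4296 higher and 4153 lower. The class medians were 4.63 for effectors, 5.41 for the ISG15 and modifier class, 5.80 for GTPases, 4.54 for sensors and 3.63 for factors.

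Because the TPM of Rbbp5 went against the genotype labels in EBSS, groups that differ in both label and medium were also set side by side. Ribosomal protein genes held 14.4% to 14.7% of the summed TPM both in labelled KO EBSS and in wildtype full medium. In labelled wildtype EBSS they held 31.2% to 33.6%. Whether the medium label of labelled KO EBSS names its medium was not tested. Between labelled KO EBSS and wildtype full medium, limma called 0 of 43 members higher and 0 lower, with 0.0869% of all tested genes higher and 0.0474% lower. At an unadjusted p under 0.05, 0 members were higher and 2 lower, against 4.13% and 6.8% of all genes. The members' changes ran from −0.54 to 0.46 with a median of 0.01, and 4 lay wholly lower in labelled KO EBSS, against 24.7% of all tested genes, while 0 lay wholly higher, against 13.6%. The summed TPM of the 44 genes averaged 1750 ± 498 in labelled KO EBSS and 1758 ± 19.9 in wildtype full medium (SD, n = 3 each). A call that was not made does not show that levels were alike, and the spread in labelled KO EBSS was wide. Without its replicate 1 the median was −0.25, and without that library and labelled wildtype EBSS replicate 3, 6 members were lower. The calls over all tested genes in that last setting are given below, with the dependence on the processing. Between labelled wildtype EBSS and KO full medium, 28 members were lower in labelled wildtype EBSS, 0 were higher and 15 did not pass, against 63.5% of all tested genes lower and 11.6% higher. At an unadjusted p under 0.05, 30 were lower and 0 higher, against 64.6% and 12.1% of all tested genes. The groups lay apart with labelled wildtype EBSS lower in 34 members and higher in 1, Irf1, against 63.4% and 12.4% of all tested genes. The members' median was −1.10 and that of all genes −0.73. With median-of-ratios scaling the members' median was −0.51, with 21 lower and 1 higher. The median of all 12653 genes was then −0.05, with 4207 lower and 3800 higher. The count of lower members was 40 without the 2 libraries named above. The share of all tested genes in that setting is not reported here, so this count is not read as a result about the members.

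Within labelled KO EBSS, replicate 1 stood apart for these genes. Of the 43 tested members, 42 (97.7%) were higher there than in replicates 2 and 3, against 54.9% of all tested genes. The median difference between replicate 1 and the mean of the other replicates was 0.62 on the log2 scale, against 0.08 for all genes, and 14 members (32.6%), against 3.04% of genes, differed by 2-fold or more. The same library had 5644 TPM of the 10 fibroblast markers, against 8339 and 8408 TPM in its group, and 2325 TPM of the 44 members, against 1475 and 1449 TPM. The largest ratios of replicate 1 to its group were in Rsad2, Mx2, Mx1 and Cmpk2, at 27.2, 26.6, 6.50 and 16.1 TPM in replicate 1. Mx1 was at 1.51 and 1.77 TPM and Cmpk2 at 4.57 and 4.47 TPM in the other replicates.

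All 44 genes were matched to the GENCODE vM21 annotation of GRCm38, on 15 chromosomes. In all, 20 lie within 200 kb of another member. These include Ifit2, Ifit3 and Ifit1 between 34550694 and 34650009 on chromosome 19, and Gbp7, Gbp3 and Gbp2 between 142530342 and 142638008 on chromosome 3. Neighbours need not vary as independent genes. Exons of 18 members overlap those of another annotated gene, 8 on the same strand and 11 on the other, so their values are uncertain where reads were shared.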

How the data were processed

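The 12 MEF libraries were placed in their 4 groups, with replicate numbers, by their titles. Per the labels' protocols, DNase-treated RNA went into an Illumina TruSeq poly(A) preparation. The authors deposited a single table of TPM by gene symbol. Salmon and mm10 are named in the submitters' processing notes, with the Salmon version, annotation, strand setting and depth not given in the sources used here. TPM columns added up to between 92.3% and 99.4% of 1e+06.

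Of 25117 symbols, 12653 reached 1 TPM in 3 or more libraries and were tested as log2(TPM + 1). A model with 1 mean per group, using every library, was fitted in limma 3.58.1 (R 4.3.3), with a variance trend, two-sided p-values and Benjamini-Hochberg adjustment at 0.05. The 44 members, their roles, the pathway and marker lists and the naming rule were chosen with earlier results of these data known, so no pattern here is independent support. By that rule, 15 listed members, the 3 most abundant of each role, and members that were untested or moved against the majority are given per library, and up to 4 called genes of each pathway group in full medium are named. Of the other STAT and IRF factors only Irf5 and Irf3 are named, and the rest of those that the rule names are not reported here. Cmpk2, Xaf1, Ifi35 and the calls that changed with a library were singled out after their values were seen. Replicate numbers did not pair the libraries. Alternatives were a pseudocount of 0.1, no filter, a mean TPM of at least 5, median-of-ratios scaling, the 6 libraries of a comparison, a replicate block, each library left out, and 2 libraries that stood apart left out. The fit was checked on simulated data. Coordinates are from GENCODE vM21 and promoters from RefSeq GRCm38.p6. Figures used matplotlib 3.10.9 under Python 3.11.15.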

Additional observations from a re-analysis of the deposited data

Results flagged for a closer look

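The difference between the genotype contrasts, EBSS minus full medium as labelled, passed the interaction test for all 43 tested members. Its median was 4.7408 on the log2 scale over all members, 4.6305 over 19 effectors, 5.4109 over 7 genes of the ISG15 and modifier class, 5.7981 over 8 GTPases, 4.5376 over 5 sensors and 3.6276 over 4 factors. Rbbp5 itself had an interaction of 2.52 (adjusted p = 3.4e-07). Its TPM went against the labels in EBSS, by 0.99 where the median tested gene differed by 0.91. Whether the EBSS labels name the genotypes and media was not tested. Over all tested genes the median was 1.06.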

How the results depend on the processing

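TPM keeps no depth, so the counting error of low members is unknown, and with 3 libraries a group 1 library can carry a call. With a pseudocount of 0.1 the members' medians were −2.48 for KO against wildtype in full medium, 3.82 for labelled KO against labelled wildtype in EBSS, −3.72 and 2.39 for EBSS against full medium in labelled wildtype and in labelled KO, 6.07 for the interaction and −1.51 for labelled wildtype EBSS against KO full medium. With median-of-ratios scaling 1 member was higher in the first and last of these comparisons and 1 lower in the interaction. The EBSS comparison of labels then had 4378 genes higher and 3694 lower and a member median of 2.24. EBSS against full medium in labelled wildtype had 3884 higher, 4480 lower and a median of −2.12. The interaction had 4296 higher, 4153 lower and a median of 4.10, with Samhd1 at −0.37. Labelled wildtype EBSS against KO full medium had 3800 higher, 4207 lower and a median of −0.51. Ifit2, between EBSS and full medium in labelled KO, was at −0.10 with that scaling, −0.13 without the 2 libraries that stood apart, and −0.13 to 0.16 with 1 library left out.

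Fitting only the 6 libraries of a comparison gave 1 member higher in KO in full medium, and 70 genes higher and 179 lower in labelled KO EBSS against wildtype full medium. For that last pair, no filter gave 17 genes lower. Without the 2 libraries that stood apart, it had 249 genes higher, 481 lower and 6 members lower. The same setting gave 1 member higher in KO full medium against wildtype and 1 in labelled wildtype EBSS against KO full medium, and a median of 1.64 for EBSS against full medium in labelled KO. In KO against wildtype in full medium, the 5 members that had not passed were all called in that setting, Samhd1 as higher and the rest as lower. With 1 library left out, members higher in KO in full medium numbered 0 to 1 and members lower 37 to 39. The member median ran from 2.48 to 3.03 between labels in EBSS, from 1.64 to 2.12 between media in labelled KO and from 4.40 to 4.96 for the interaction. Labelled KO EBSS against wildtype full medium then had 5 to 93 genes higher, 3 to 126 lower and 0 to 1 members lower. Labelled wildtype EBSS against KO full medium had 0 to 1 members higher and 26 to 35 lower. Except for labelled KO EBSS against wildtype full medium, the shares of all tested genes in these settings are not reported here. Those member counts are therefore not read as results about the members.

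Same-numbered libraries did not deviate together (18 pairs, r −0.0728 to 0.0793; 36 pairs of different number, −0.0978 to 0.0879). With the replicate block, labelled KO EBSS against wildtype full medium had 5 genes higher and 2 lower. In labelled KO 37 members were then higher in EBSS, and Ifit3 did not pass (adjusted p = 0.0547). The share of all tested genes beside that count of 37 is not reported here, so it is not read as a result about the members. The interaction could not be fitted from 6 libraries. The filter at a mean of 5 TPM kept 34 members. The cause of these shifts was not tested.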
